A study of Mus musculus with 10 samples.

Results

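The genes described here are the 4 myogenic regulatory factors (MRFs) Myod1, Myf5, Myf6 and Myog, the paired-box factor Pax7, the SIX-EYA genes Six4, Eya1 and Eya4, and the T-box factor Tbx15. They were chosen by symbol as 9 of the 23337 genes in the count files. The libraries come from a study of E0, an enhancer in the first intron of the titin gene Ttn, and each holds poly(A) RNA from the left ventricle (LV) or the skeletal muscle (SkM) of a mouse. The mice were hybrids of C57BL/6 and 129SvEv, and those called E0del/+ carried a CRISPR/Cas9 deletion of E0 on the C57BL/6 copy of Ttn while WT mice carried none. Both tissues of 2 WT and 3 E0del/+ mice gave 10 libraries, and the muscle that was sampled is not named in the sources used here. Their age was taken to be 17 weeks, the age stated for a set of ventricles of E0del/+ mice, and is not stated for these libraries. Total counts were between 11010021 and 17484873 per library, with a median of 14050602, so that 1 count was worth between 0.0572 and 0.0908 CPM (counts scaled to the library total).

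MRFs are basic helix-loop-helix (bHLH) factors that bind the E-box and switch on muscle genes in skeletal muscle and its precursors, and heart muscle forms without them. Pax7 marks the satellite cells from which adult muscle regenerates. SIX-family homeodomain proteins bind DNA and recruit EYA proteins as coactivators, and together they act upstream of the MRFs in the embryo and on fast fibre genes in adult muscle, while Tbx15 is known for its part in the limb skeleton and in glycolytic fibres. In adult rodents Myog transcripts are known to be richer in slow muscle and Myod1 transcripts in fast muscle.

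Tissue markers matched the labels apart from WT LV replicate 2. Myh4, the fast IIB myosin, was between 70877 and 80026 CPM in the 5 SkM libraries and between 70.3 and 81.7 CPM in 4 LV libraries, but 18473 CPM in WT LV replicate 2. That library is therefore kept out of the comparisons below unless it is named, and with it the pair of WT mouse 2, which leaves 4 mice for the tissues. Among the SkM libraries, Xist was 0.343 CPM in WT replicate 2 and 0.422 CPM in E0del/+ replicate 3, and between 278.5 and 396.9 CPM in the others. Counts of 4 genes of chromosome Y were 2771 and 2516 in those libraries, 300 in WT replicate 1, and 14 and 12 in E0del/+ replicates 1 and 2, so WT SkM replicate 1 held both kinds of transcript. The titin transcript itself was at 24205 and 15856 CPM in the WT SkM libraries, and at 20092, 18854 and 13585 CPM in E0del/+ SkM replicates 1 to 3, which overlap. Such totals do not separate the copies of Ttn, and the paper reports less transcript from the copy without E0 in hybrid mice.

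The MRF transcripts were a property of SkM. Myod1, the founding member of the family, was at 27.6 and 52.5 CPM in WT SkM replicates 1 and 2, and at 31.7, 24.8 and 35.1 CPM in E0del/+ SkM replicates 1 to 3. Myf6, the MRF of mature fibres, was at 53.3 and 56.4 CPM in WT SkM, and at 48.5, 45.6 and 63.8 CPM in E0del/+ SkM. In the 4 LV libraries Myod1 had 2 counts in all and Myf6 had 3, with no library above 1 count for either gene. SkM exceeded LV in every pair, and the pooled ratio of SkM to LV was 758 for Myod1 (95% exact interval 209.6 to 6265) and 891 for Myf6 (304.5 to 4321). These intervals cover counting error only. In bulk tissue, fewer cells of a type and less RNA per cell cannot be told apart.

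Myog, the MRF of terminal differentiation, had 0 counts in each of the 4 LV libraries. It was at 8.64 and 5.15 CPM in WT SkM replicates 1 and 2, and at 9.85, 10.9 and 4.15 CPM in E0del/+ SkM replicates 1 to 3. Against a floor of 3 counts in the LV library of the same mouse, Myog was at least 15.9-fold higher in SkM in all 4 mice. Myf5, which acts earliest of the family in the embryo and stays on in satellite cells, was near the limit of detection even in SkM. It was at 1.08 and 1.03 CPM in WT SkM, and at 1.05, 1.53 and 1.13 CPM in E0del/+ SkM, from 15 to 23 counts per library. With 0 counts in the 4 LV libraries, Myf5 was at least 4.30-fold higher in SkM. No SkM value of any MRF overlapped the 4 LV libraries.

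Within SkM the MRFs differed widely in level when counts were divided by exon length (RPKM). Myf6 stood at 42.9 ± 5.71 RPKM (SD, n = 5), Myod1 at 18.5 ± 5.87, Myog at 5.23 ± 2.00 and Myf5 at 0.558 ± 0.101. Myf6 thus made up 63.9% ± 4.43 of the summed MRF level, Myod1 27.2% ± 5.52, Myog 8.14% ± 3.87 and Myf5 0.850% ± 0.244. Myf5 and Myf6 are neighbours on chromosome 10, on the minus strand of mm10, at 107482908 to 107486134 and 107492860 to 107494729, with 6725 bp between their exons. Their levels nonetheless differed 79.1-fold ± 17.9 over the 5 libraries, with Myf6 the higher in each.

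Promoter windows credited to RefSeq (GRCm38.p6, the build also called mm10, 250 bases before to 50 after a start site) matched 5 of the 9 genes, with 7 windows: Myog, Pax7 and Myf5 with 1 each, and Six4 and Eya4 with 2 each. They were searched on both strands for the E-box CANNTG, its core CAGCTG, the SIX-binding core TCAGGTT and the MEF2 consensus. The Myog window is shown because it holds letters of the E-box and of the SIX-binding core, and a Six4 window because it holds the SIX-binding core. Capitals mark these matches, and each sequence runs 5′ to 3′ on the strand of its gene (chr1:134289754-134290053, plus strand, and chr12:73113196-73113495, minus strand).
Myog: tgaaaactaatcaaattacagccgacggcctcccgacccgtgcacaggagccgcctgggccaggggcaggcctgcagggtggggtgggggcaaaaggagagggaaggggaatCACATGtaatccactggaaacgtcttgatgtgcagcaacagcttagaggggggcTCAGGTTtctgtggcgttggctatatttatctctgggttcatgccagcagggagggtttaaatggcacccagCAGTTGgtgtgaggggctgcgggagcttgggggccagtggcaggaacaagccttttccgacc
Six4: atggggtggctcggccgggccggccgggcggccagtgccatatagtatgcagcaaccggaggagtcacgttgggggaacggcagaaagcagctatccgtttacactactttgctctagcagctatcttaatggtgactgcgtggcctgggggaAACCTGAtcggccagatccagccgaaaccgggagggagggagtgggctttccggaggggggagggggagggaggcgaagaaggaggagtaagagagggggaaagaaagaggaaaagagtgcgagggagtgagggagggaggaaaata
In Myog the E-boxes begin 138 and 12 bases before the start site and the SIX-binding core begins 84 bases before it. In Six4 the core lies on the opposite strand, so that the capitals read as its reverse complement, and begins 97 bases before the start site. The Eya4 windows overlap and share an E-box, 3 or 56 bases before the start site, and the windows of Myf5 and Pax7 and the other Six4 window held none of the 4 motifs. An E-box was present in 72.3% of 32841 promoter windows, CAGCTG in 16.3%, the SIX-binding core in 4.07% and the MEF2 consensus in 3.19%. None of the 7 windows held a match to CAGCTG or to the MEF2 consensus as searched. A site that departs from the searched letters would be missed, so this does not show that a window lacks a MEF2 site.

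**Figure D1:**
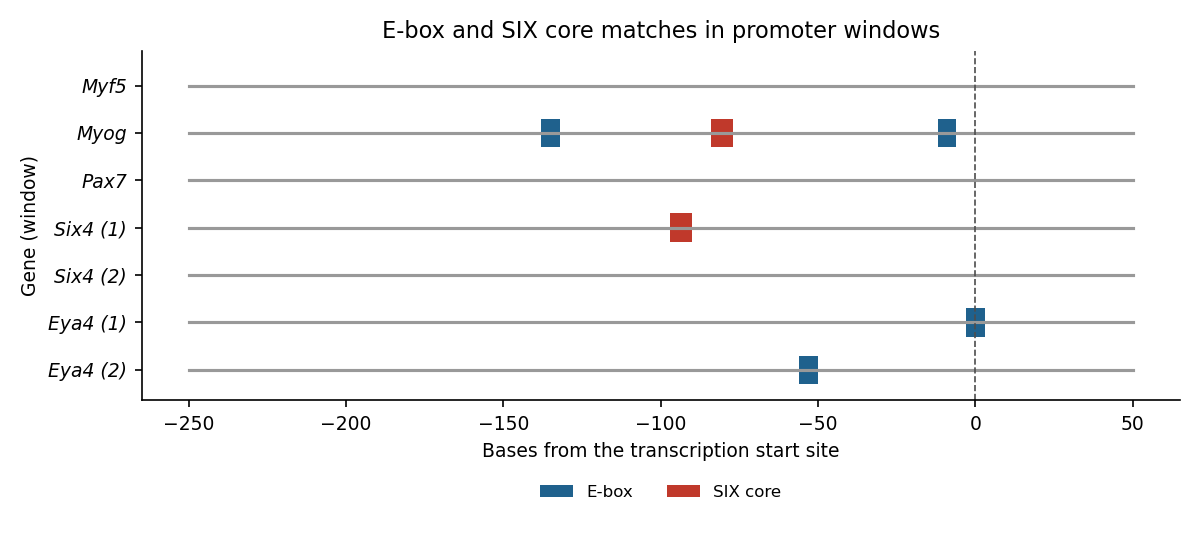
Motif matches in the 7 promoter windows of Myf5, Myog, Pax7, Six4 and Eya4, with position in bases from the transcription start site on the x axis (dashed line at the start site) and 1 window per line. Blue boxes are E-boxes and red boxes SIX-binding cores, drawn to length, and Myog is the window with both.

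Pax7 was found in SkM at a low level. It was at 2.81 and 1.60 CPM in WT SkM replicates 1 and 2, and at 3.38, 2.86 and 2.18 CPM in E0del/+ SkM replicates 1 to 3, from 28 to 55 counts. The 4 LV libraries had 0 counts, so Pax7 was at least 8.34-fold higher in SkM in each of the 4 mice. Its level of 0.601 ± 0.161 RPKM in SkM (SD, n = 5) and that of Myf5 did not differ beyond their spread, Pax7 being the higher in 2 of 5 libraries. Pax3, its paralogue, also had 0 counts in the 4 LV libraries and was at least 3.77-fold higher in SkM.

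Six4, unlike the MRFs, was present in both tissues. In LV it was at 11.9 CPM in WT replicate 1, and at 11.2, 9.45 and 10.99 CPM in E0del/+ replicates 1 to 3. In SkM it was at 38.9 and 25.9 CPM in WT replicates 1 and 2, and at 46.8, 47.3 and 29.7 CPM in E0del/+ replicates 1 to 3. The tissues did not overlap, and within a mouse SkM exceeded LV between 2.70-fold (E0del/+ mouse 3) and 5.01-fold (E0del/+ mouse 2) in CPM. Eya1, a coactivator of SIX-family proteins with a phosphatase domain, was at 2.92, 2.67, 3.27 and 4.19 CPM in the same LV libraries. In SkM Eya1 was at 43.4 and 45.9 CPM in WT and at 37.3, 48.6 and 42.8 CPM in E0del/+. SkM was higher in all 4 mice, between 10.2-fold and 14.9-fold.

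Eya4 was close to absent from LV. The 4 LV libraries had 3, 8, 9 and 8 counts of Eya4, or 0.230, 0.521, 0.817 and 0.698 CPM. The SkM libraries had 56.8 and 65.0 CPM in WT, and 63.0, 61.3 and 54.5 CPM in E0del/+. The ranges lay far apart, and the pooled ratio of SkM to LV was 107 (95% exact interval 74.1 to 161.7). Tbx15 had the highest level of the 9 genes in SkM, also per exon length, but not in LV. It was at 416 and 499.6 CPM in WT SkM and at 376, 346 and 524 CPM in E0del/+ SkM, against 1.92, 1.37, 2.09 and 2.97 CPM in LV, and no libraries of the 2 tissues overlapped. Within a mouse SkM exceeded LV between 166-fold (E0del/+ mouse 2) and 275-fold (E0del/+ mouse 1).

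**Figure D2:**
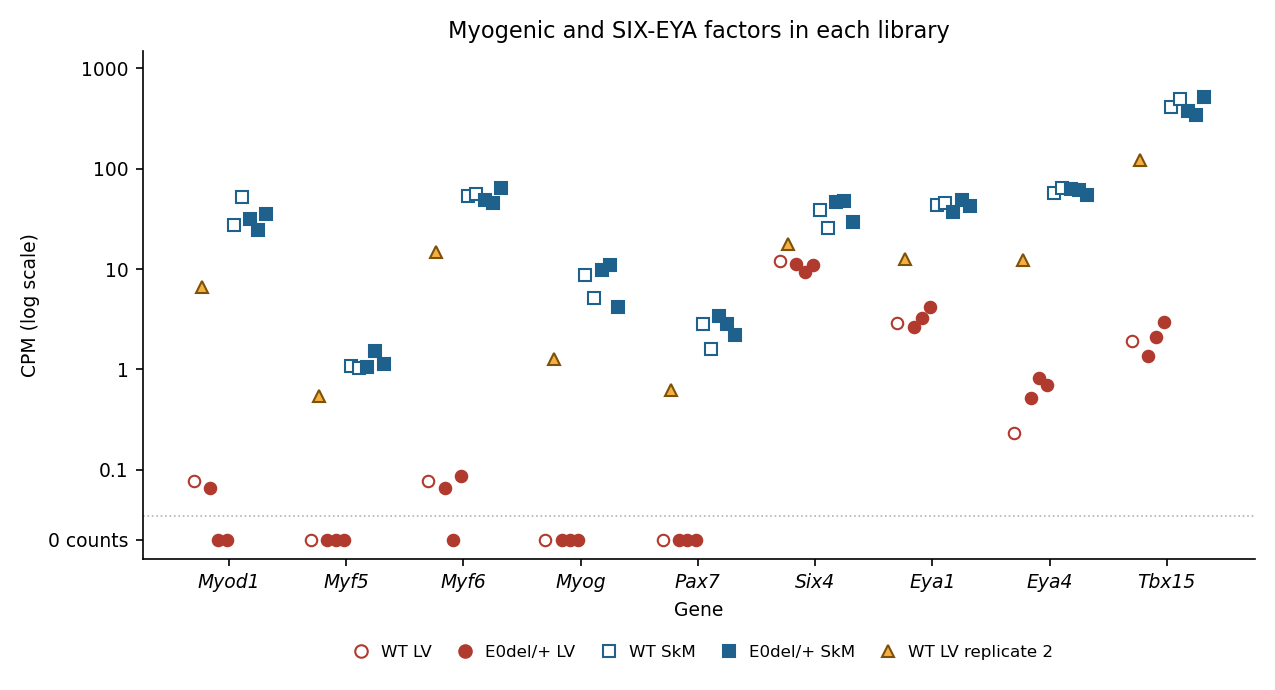
CPM on a log axis for each of the 9 genes in each of the 10 libraries, with circles for LV, squares for SkM, open symbols for WT and filled symbols for E0del/+. Points under the dotted line have 0 counts, as Myf5, Myog and Pax7 do in 4 LV libraries, and triangles are WT LV replicate 2, which lies between the tissues for all 9 genes.

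Ordered by length-corrected level in SkM, Tbx15 (121 ± 21.6 RPKM, SD, n = 5) was followed by Myf6, Myod1, Eya4 (14.7 ± 1.07), Eya1 (10.03 ± 0.970), Six4 (6.77 ± 1.75), Myog, Pax7 and Myf5. Neighbours whose ranges overlapped were Myod1 and Eya4, Six4 and Myog, and Pax7 and Myf5, although Six4 exceeded Myog in each of the 5 libraries. The order in LV was different. Six4 came first at 1.95 ± 0.186 RPKM (SD, n = 4), then Eya1 at 0.751 ± 0.153, Tbx15 at 0.585 ± 0.186 and Eya4 at 0.138 ± 0.0622.

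The LV level was 26.7% of the SkM level for Six4 (95% exact interval 24.3 to 29.3), 7.47% for Eya1 (6.34 to 8.76), 0.932% for Eya4 (0.618 to 1.35) and 0.490% for Tbx15 (0.3998 to 0.5945), over pooled counts of the 4 mice. These intervals cover counting error only. The spread between mice, which they leave out, was wider than the interval for each of Six4, Eya1, Eya4 and Tbx15. For Myod1 it was 0.132% (0.0160 to 0.477) and for Myf6 0.112% (0.0231 to 0.328). Of 8 genes of fast fibres, Myh4, Actn3, Tnnt3 and Myl1 being the most abundant, mean CPM in LV was between 0.0953% and 0.494% of that in SkM, with a median of 0.119%. The traces of Myod1 and Myf6 were thus of the same size as those of the fast fibre genes. Six4, Eya1 and Eya4 lay above all 8 of these. Tbx15 was near Myl1, the highest of them at 0.494%, and above the others, which were at most 0.128% (Pvalb). The part of stray skeletal muscle RNA in these traces was not tested.

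Across all genes, 8202 of 13375 differed between the tissues by edgeR's quasi-likelihood test with the mouse as a block, at an adjusted p under 0.05 (Benjamini-Hochberg), with 3991 (29.8% of the genes tested) higher in SkM and 4211 (31.5%) lower. All 9 genes were among those higher in SkM, but 6 of them could pass the filter on low counts only through SkM, which selects for genes higher there, and no weight is given to their number. Six4, Eya1 and Tbx15 passed in either tissue. Their log2 fold changes were 2.53 (SE 0.20, adjusted p = 3.79e-05) for Six4, 4.38 (SE 0.17, adjusted p = 1.24e-06) for Eya1 and 8.31 (SE 0.19, adjusted p = 2.48e-07) for Tbx15, each higher in 4 of 4 mice. Tbx15 exceeded a log2 fold change of 4, as 2.17% of the genes tested did, under every setting tried, while Eya1 was at 3.73 with scaling by total counts and at 3.99 with all 5 mice. The exact permutation of signs over 4 mice gave p = 0.125 (two-sided) for each of the 9 genes, which is the smallest it allows. These fold changes follow TMM scaling. With scaling by total counts, on which CPM rests, the median of all genes moved from -0.02 to -0.67, and the share of the calls that were higher in SkM from 48.7% to 18.1%.

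Genes of related families and pathways were counted over those that passed the filter in both tissues, since passing through 1 tissue alone selects genes that are higher in that tissue. Of 11308 such genes, 32.1% were higher in SkM and 29.6% lower, with a median log2 fold change of 0.04. Of 9 other SIX-family, EYA, DACH and PAX genes, 7 were tested and 3 passed in both tissues, all 3 lower in SkM at a median of -1.49. Eya3 was at 71.6 ± 6.03 CPM in LV (SD, n = 4) and 24.3 ± 3.15 CPM in SkM (SD, n = 5), with a log2 fold change of -0.86 (SE 0.12). Six5 (25.9 ± 6.93 against 4.86 ± 2.35 CPM) and Dach1 (22.4 ± 4.12 against 4.39 ± 1.41 CPM) went the same way. Six2 (0.272 ± 0.243 against 4.54 ± 3.98 CPM), Dach2 (0.0998 ± 0.0769 against 2.57 ± 1.16 CPM) and Pax3 were higher in SkM, and passed through SkM alone. Eya2, which passed through LV alone, was not called, at 1.99 ± 0.4999 CPM in LV and 1.65 ± 1.65 CPM in SkM, and Six3 and Six6 had 0 counts in all of these 9 libraries.

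The make-up of the EYA family therefore differed between the tissues. Of its summed level in RPKM, Eya3 made up 88.8% ± 2.47 in LV (SD, n = 4) and 15.5% ± 1.87 in SkM (SD, n = 5). Eya4 and Eya1 rose from 0.908% ± 0.455 and 4.85% ± 0.943 to 48.8% ± 2.49 and 33.4% ± 3.33. The ranges of the tissues did not overlap for any of these 3 genes. The summed level of the EYA genes was 15.5 ± 1.18 RPKM in LV and 30.1 ± 1.28 RPKM in SkM.

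**Figure D3:**
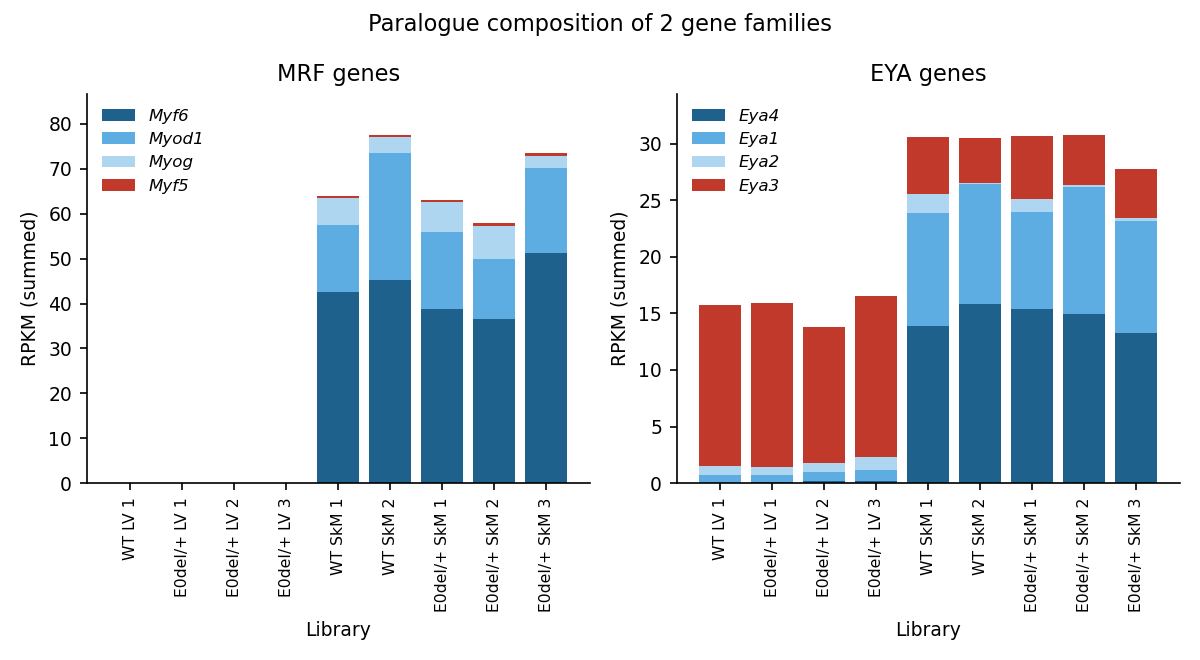
Stacked RPKM of the MRF and EYA genes in 4 LV libraries and 5 SkM libraries, with 1 bar per library and WT LV replicate 2 left out. The MRF panel is at or near 0 in LV, and the red segments of Eya3 fill most of the LV bars but little of the SkM bars.

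Genes that work with the MRFs lay on both sides. Of 19 partners and inhibitors of the MRFs tested, not all of them bHLH factors, 13 passed the filter in both tissues. Of these 13, 3 were higher in SkM (23.1%), 6 lower (46.2%) and 4 not called, at a median log2 fold change of -0.49. Tcf4, an E protein that pairs with MRFs, was at 251 ± 60.8 CPM in LV (SD, n = 4) and 69.0 ± 3.85 CPM in SkM (SD, n = 5), with a log2 fold change of -1.18 (SE 0.13). The repressors Bhlhe40 (log2 fold change 1.70, SE 0.15) and Bhlhe41 (1.37, SE 0.17) were higher in SkM. Zeb1 was called higher in SkM at a log2 fold change of 0.38, and lower at -0.27 with scaling by total counts.

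Of 9 textbook targets of the MRFs tested, 5 passed the filter through SkM alone and are not counted here. Of the other 4, 3 were higher in SkM and 1 was not called, at a median log2 fold change of 1.66, while Chrng and the fusion genes listed as Tmem8c and Gm7325 did not pass the filter. Ckm, the muscle creatine kinase, was at 2194 ± 126 CPM in LV (SD, n = 4) and 19981 ± 2671 CPM in SkM (SD, n = 5), and the acetylcholine receptor gene Chrnb1 at 11.03 ± 3.50 and 33.1 ± 5.06 CPM. Rapsn, which clusters that receptor, had a log2 fold change of 1.07 (SE 0.11). Rbm24, a splicing factor of both muscles, was not called at 0.28 (SE 0.16), and at -0.37 with scaling by total counts.

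Of 12 satellite cell markers, which include Pax7 and Myf5, 11 were tested, Calcr being under the filter. Of those tested, 5, Pax7 and Myf5 among them, passed through SkM alone. The other 6 comprised 1 gene higher in SkM, 4 lower and 1 not called, at a median log2 fold change of -0.77. The most abundant of them, Itga7, was lower in SkM (108 ± 5.85 CPM, SD, n = 5) than in LV (324 ± 22.8 CPM, SD, n = 4). Spry1 and Heyl, at log2 fold changes of -0.58 and -2.28, were lower as well, and Sdc4 was the higher one at 0.74 but not called with scaling by total counts. Of 7 genes of denervation and regeneration, 6 were tested and 4 passed in both tissues, with 2 higher in SkM, 1 lower and 1 not called, at a median of 0.54. Actc1 (-3.28) was the lower one, Gadd45a (0.96) was higher but not called with scaling by total counts, and Ncam1 (0.11) was not called. The perinatal myosin gene Myh8 (0.0960 ± 0.192 CPM in LV, 7.04 ± 1.496 CPM in SkM) passed through SkM alone.

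The transcription factors of the cardiac lineage were found in LV, where all 6 that were tested passed the filter through LV alone, so that no count is given, Hand1 and Isl1 being under it. Tbx20, of the same T-box family as Tbx15, was at 205 ± 28.6 CPM in LV (SD, n = 4) and 0.621 ± 0.296 CPM in SkM (SD, n = 5), and Gata4 at 172 ± 18.8 and 0.318 ± 0.108 CPM. Gata6 was at 81.8 ± 12.4 and 0.590 ± 0.326 CPM, and Hand2 at 51.5 ± 3.41 and 0.102 ± 0.154 CPM. Of the genes that passed in both tissues, ventricle markers were lower in SkM in 5 of 5 cases (median log2 fold change -8.39) and fast fibre genes higher in 8 of 8 (median 10.37). Of 5 slow fibre genes, most of which the ventricle also expresses, 1 was higher in SkM and 3 lower (median -4.68), with Myh7 not called. Markers of fibroblasts (5 of 5), endothelium (4 of 4) and macrophages (3 of 3) were lower in SkM, at medians of -1.57, -2.14 and -1.86. Adipocyte markers were higher in 1 of 2 cases (median 2.99) and Schwann cell markers in 1 of 3 (median -0.45), with the others not called.

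Over all 5 SkM libraries the spread was largest for Myog and Myod1, and the libraries highest in Myod1 were the lowest in Myog. Myog was highest in E0del/+ replicate 2 and lowest in E0del/+ replicate 3, a 2.63-fold range with an SD of log2(CPM + 0.5) of 0.57. Myod1 was highest in WT replicate 2 and lowest in E0del/+ replicate 2, a 2.12-fold range with an SD of 0.41. That of Myod1 rested on WT replicate 2, without which it was 0.22, under the 0.31 of Six4. The ratio of Myod1 to Myog in RPKM was 2.55 and 8.14 in WT SkM replicates 1 and 2, and 2.57, 1.81 and 6.75 in E0del/+ SkM replicates 1 to 3. WT replicate 2 and E0del/+ replicate 3 were thus the libraries with the most Myod1 for their Myog.

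Six4 followed Myog in this, with its lowest values in WT replicate 2 and E0del/+ replicate 3, and a 1.83-fold range (SD 0.39). Pax7, with a 2.11-fold range (SD 0.34), was lowest in the same libraries. Myod1, Myf6 and Tbx15 were highest in them, Tbx15 with a 1.51-fold range (SD 0.26) and Myf6 with a 1.40-fold range (SD 0.19). Eya1 (SD 0.14) and Eya4 (SD 0.11) had the smallest SD of the 9 genes over the 5 libraries, Eya4 spanning 1.19-fold from lowest to highest. Both SDs were larger with TMM library sizes, and without E0del/+ replicate 2 that of Myf5 was the smallest. Over 13154 genes tested in SkM the median SD was 0.25. The coefficient of variation of Myog was 38.2% where counting alone gives 9.22%, that of Myod1 31.7% against 4.33%, and that of Myf5 18.1% against 23.8%, so that the spread of Myf5 was within counting error.

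The libraries WT SkM replicate 2 and E0del/+ SkM replicate 3, which were low in Xist, also had the least slow fibre RNA. The summed CPM of the 6 slow fibre genes was 1564 and 201 in WT SkM replicates 1 and 2, and 2247, 2788 and 398 in E0del/+ SkM replicates 1 to 3, with 0 genes at 0 counts and Myh7 the most abundant except in WT replicate 2, where it was Atp2a2. The 8 fast fibre genes, led by Myh4, summed to 113844 and 123257 CPM in WT and to 109194, 115860 and 120525 CPM in E0del/+. Adipocyte markers, led by Cfd except in WT replicate 2, summed to 1255 and 29.4 CPM in WT and to 339, 178 and 1362 CPM in E0del/+. Schwann cell markers, led by Pmp22, summed to 137.6 and 86.4 CPM in WT and to 24.6, 32.8 and 97.8 CPM in E0del/+. Neither of these sums fell in the order of Myog or Myod1.

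Slow fibre genes were not alone in being lowest in the libraries lowest in Myog, Six4 and Pax7. That held for the sums of 7 of 14 lists, and for 2, the fast fibre genes and the MRF targets, those libraries were the highest. The MRF target sum was mostly Ckm, at 24423 of 24793 CPM in WT SkM replicate 2. Not every fast fibre gene was highest there, Myh1 being lowest in those libraries. Genes of denervation and regeneration, led by Actc1, summed to 2099 and 180 CPM in WT SkM replicates 1 and 2, and to 1046, 1262 and 117.3 CPM in E0del/+ SkM replicates 1 to 3, with Chrng at 0 counts in E0del/+ replicate 1. This sum rested on Actc1, at 2060 and 148 CPM in WT and at 1012, 1233 and 95.01 CPM in E0del/+. The other genes of the list did not all go the same way, Chrng being highest in WT replicate 2 (1.66 CPM). Endothelial markers, led by Cdh5, summed to 203.8 and 97.9 CPM in WT and to 213.2, 197.9 and 167 CPM in E0del/+. Ventricle markers, led by Myh6, summed to 141.9 and 67.3 CPM in WT and to 328.6, 230.3 and 75.2 CPM in E0del/+, with 1 gene at 0 counts except in E0del/+ replicate 1. The lists of MRF partners and inhibitors, satellite cell markers and SIX-EYA paralogues were the others.

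Slow fibre content, Xist and whatever else sets these libraries apart cannot be told apart here, and their part in the values of Myog, Six4 and Pax7 was not tested. Nor is the order particular to these genes. The libraries low in Xist were the lowest pair for 3 of 9 genes beside 28.8% of the 13154 genes tested, and the highest pair for 3 of 9 beside 13.9%.

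**Figure D4:**
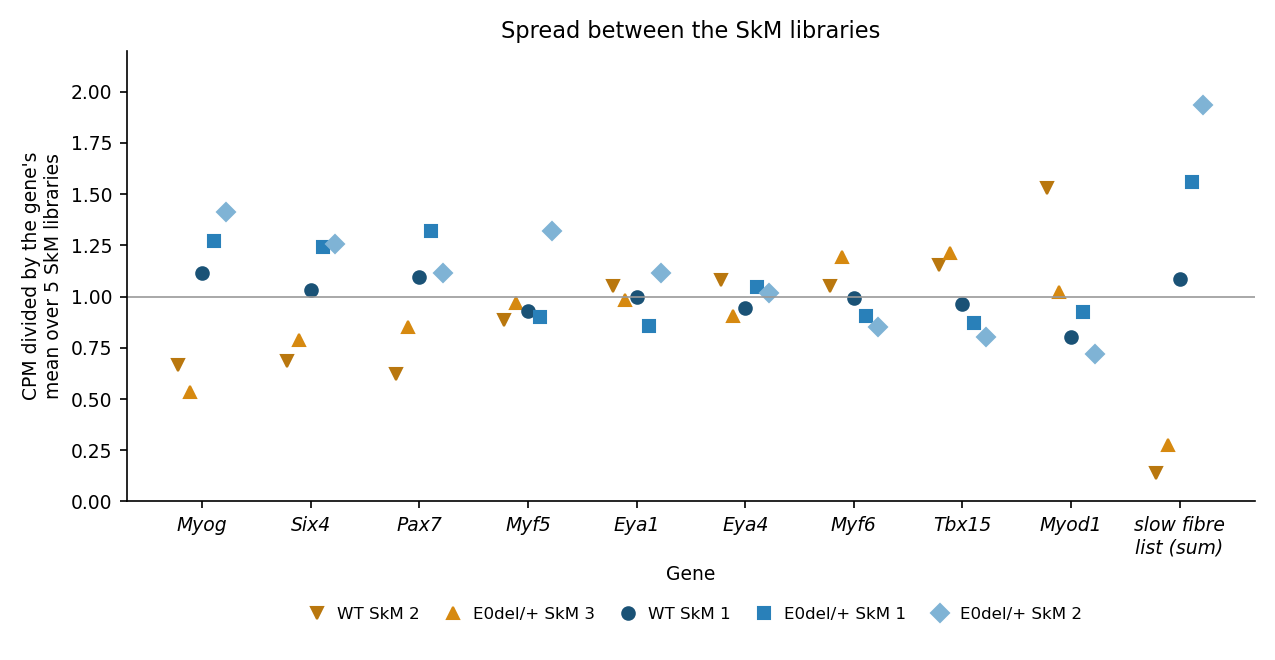
CPM of each of the 9 genes in the 5 SkM libraries, divided by the mean of that gene over these libraries, with the summed slow fibre genes at the right on the same scale. WT SkM replicate 2 and E0del/+ SkM replicate 3 (orange) are lowest for Myog, Six4, Pax7 and the slow fibre sum, and highest for Myf6, Tbx15 and Myod1.

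Likeness to each gene was measured as the root mean square difference in log2(CPM + 0.5), each gene centred on its mean over the 9 libraries other than WT LV replicate 2, among the 12212 genes whose SkM mean reached 1 CPM. Nearest to Myod1 were Lrrc30 (0.18), Cib2 (0.22) and Lbx1 (0.29), and nearest to Myf6 were Ddit4l (0.21), St8sia5 (0.22) and Cd24a (0.27). For Myog they were Cntnap2 (0.22), Atp1b2 (0.23) and Slc7a2 (0.24). None of the 9 genes was among the nearest of another. For genes with few or 0 counts in LV, as the MRFs and Pax7, the difference between the tissues is set in part by the added 0.5 CPM, so that likeness says little about it. Tbx15 was nearest to Mstn (0.21), the gene of myostatin, then to Tmem233 (0.23) and Slc8a3 (0.25), and Eya4 to Tspan8 (0.13), Tmem52 (0.18) and the muscle cadherin gene Cdh15 (0.22). Eya1 was nearest to Maf (0.16), Kcna7 (0.17) and Kcnab1 (0.17), and Six4 to Samd8 (0.15), Hist1h1e (0.16) and Pknox2 (0.17). For Pax7 they were Arhgap19 (0.11), AI464131 (0.11) and Cbfb (0.17), and for Myf5 Srpr (0.09), 1110067D22Rik (0.11) and Slc12a2 (0.14).

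Loss of E0 on the C57BL/6 copy of Ttn came with no detected difference in these factors in SkM. Myod1 was at 40.1 ± 17.6 CPM in WT SkM (SD, n = 2) and 30.5 ± 5.26 CPM in E0del/+ SkM (SD, n = 3), and Myog at 6.89 ± 2.47 and 8.31 ± 3.64 CPM. Six4 was at 32.4 ± 9.21 CPM in WT and 41.3 ± 10.03 CPM in E0del/+, and Tbx15 at 458 ± 59.0 and 415.5 ± 95.1 CPM. The genotypes overlapped in each of these. Their ranges were apart for 0 of the 9 genes, beside 11.4% of the 13154 genes tested.

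The log2 fold change of E0del/+ against WT was -0.43 (SE 0.35) for Myod1, 0.24 (SE 0.51) for Myf5, -0.06 (SE 0.20) for Myf6 and 0.30 (SE 0.46) for Myog. It was 0.38 for both Pax7 (SE 0.40) and Six4 (SE 0.25), -0.05 (SE 0.20) for Eya1, -0.04 (SE 0.17) for Eya4 and -0.15 (SE 0.26) for Tbx15. The SE was smallest for Eya4 and largest for Myf5. The estimates for Six4 and Myod1 were larger than their SE and still not called, so changes beyond these errors could also go undetected with 5 libraries. By edgeR's quasi-likelihood test 0 of the 9 genes were called, beside 0% of the 13154 genes tested, with 114 genes at an unadjusted p under 0.05 and an adjusted p of 0.9998 for each of the 9. DESeq2 called 0 genes as well, with 151 at an unadjusted p under 0.05. The exact permutation of genotype labels gave p between 0.4 (Pax7) and 0.8 (Myf6 and Eya4), two-sided, where 0.1 is the smallest it allows.

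The 2 batches that hold both genotypes did not give the same direction for every gene. E0del/+ over WT was 1.15 in batch 1 and 0.472 in batch 2 for Myod1, while it was above 1 in both for Myog (1.14 and 2.12), Six4 (1.21 and 1.83) and Pax7 (1.21 and 1.79). In batch 2 the WT library is replicate 2, low in Xist and in these 3 genes, and the E0del/+ library is not low in Xist, so that genotype and what sets WT replicate 2 apart cannot be told apart there. The WT library of batch 1 held transcripts of both Xist and chromosome Y, and the part of this in the genotype values was not tested. Tbx15 was below 1 in both (0.903 and 0.693), as was Myf6 (0.910 and 0.808), and Myf5, Eya1 and Eya4 also changed direction between the batches. With the batch as a replicate block, 0 of the 9 genes and 1 other gene, the Y-linked Eif2s3y, were called, and 596 genes had an unadjusted p under 0.05. In other settings, that number was 62, 16 and 291 without E0del/+ replicates 1 to 3, and 306 with Xist expression as a term, each time with 0 genes called. Leaving out a WT library leaves 1 of that genotype, so no number is given for it. Batch 3 holds E0del/+ replicate 3 alone.

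**Figure D5:**
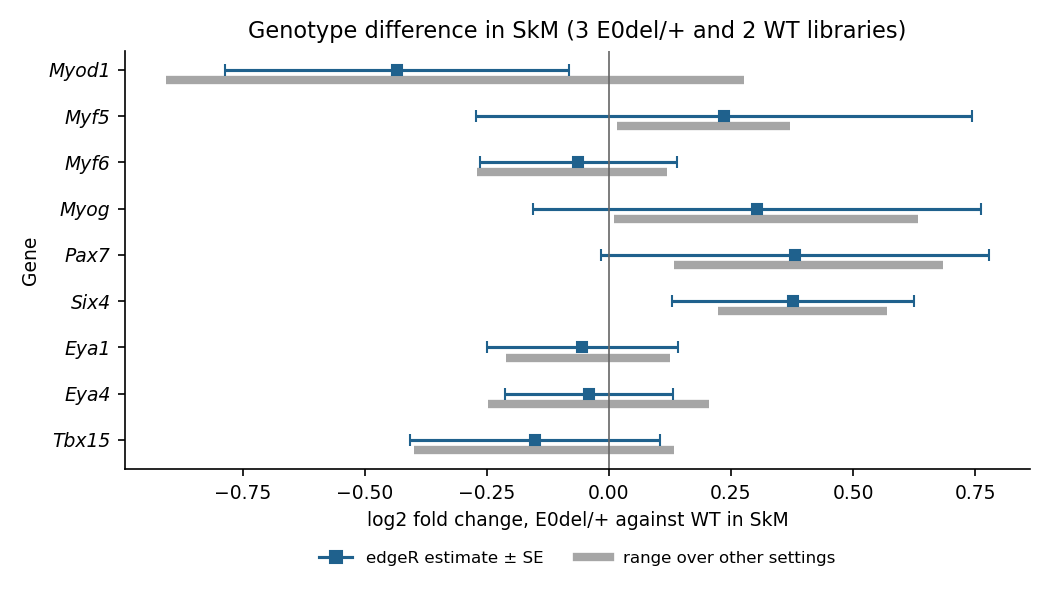
log2 fold change of E0del/+ against WT in SkM for the 9 genes, with squares for the edgeR estimate, error bars for its SE (3 E0del/+ and 2 WT libraries) and grey bars for the range over the other settings. The estimates lie between -0.43 for Myod1 and 0.38 for Pax7 and Six4, and the grey bars cross 0 for Myod1, Myf6, Eya1, Eya4 and Tbx15.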

How the data were processed

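The authors deposited raw counts and RPKM per gene. The submitters' processing notes name STAR, DESeq2 and mm10, with no roles or versions, and the counting software is not given in the sources used here. The deposited RPKM equalled counts per exon length and library total. CPM was computed from the raw counts, and the libraries keep no strand. No other gene in the files or in GENCODE M21 has exons overlapping those of the 9 genes.

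Tests used R 4.3.3 and edgeR 4.0.16 (filterByExpr, TMM, glmQLFit and glmQLFTest, Benjamini-Hochberg, threshold 0.05) over all genes: SkM against LV in 8 libraries with the mouse as a block, and E0del/+ against WT in 5 SkM libraries. On simulated counts they called 191 of 199 changed genes and 17 unchanged ones between tissues, and 172 of 196 and 7 between genotypes. The simulated counts had the same fixed dispersion for every gene and no effect of mouse, batch or Xist. These numbers therefore check the code and do not say how readily a change would be detected in the real libraries. DESeq2 1.42.0 (Wald test), DESeq2 size factors, total counts, other filters, blocks and leaving out each mouse or library were alternatives, and Xist expression (over 100 CPM) as a term was added with the data seen. Single genes were tested by exact permutation.

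Tissues were paired because they come from the same animal (correlations of deviations between -0.101 and 0.0918). The labels give a batch equal to the replicate number, which pairs the genotypes in batches 1 and 2 (correlations 0.518 and 0.310). With 2 WT libraries per tissue, their deviations from the WT mean are equal and opposite. The correlations that involve WT libraries are therefore not independent of each other.

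The genes, their 15 lists and the rules were chosen with earlier results of these data known. From each list other than that of the 9 genes, up to 4 genes with the highest mean CPM were named, and any paralogue of the 9, but for the lists of other cell types and of the ventricle only counts, medians, sums and the gene with the highest CPM were given. Lists were counted over genes that passed the filter in both tissues, a choice made with the data seen. List genes under the filter were named as such, and 2 genes of the lists were not used here. Eif2s3y was named after its value was seen.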

Additional observations from a re-analysis of the deposited data

Results flagged for a closer look

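WT LV replicate 2, used above only where all 5 mice are named, held each of the 9 genes above the other LV libraries and above 3 counts. Its values were 6.57 CPM for Myod1, 0.540 CPM for Myf5 (6 counts), 14.8 CPM for Myf6 and 1.26 CPM for Myog. Pax7 was at 0.630 CPM (7 counts), Six4 at 17.6 CPM, Eya1 at 12.5 CPM, Eya4 at 12.2 CPM and Tbx15 at 122 CPM.

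The excess of each gene over the mean of the other LV libraries was set against the same excess in SkM. Against the mean of the 5 SkM libraries it was between 16.7% and 24.6% for 8 fast fibre genes, with a median of 22.8%. Among the 9 genes it was then lowest for Myog (16.3%) and highest for Myf5 (46.4%), with a median of 24.5%. Against WT SkM replicate 2, of the same mouse, the fast fibre genes lay between 15.7% (Tnni2) and 44.6% (Myh1), and the 9 genes between 12.4% (Myod1) and 52.5% (Myf5). Against E0del/+ SkM replicate 3, the fast fibre genes had their narrowest range, between 20.7% and 23.4%. The 9 genes then lay between 18.6% (Myod1) and 48.0% (Myf5). In the SkM library of the same mouse Myod1, Eya4 and Tbx15 were at 52.5, 65.0 and 499.6 CPM. The cause of these values was not tested.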

How the results depend on the processing

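For SkM against LV, Six4, Eya1 and Tbx15, which passed the filter in either tissue, were called higher in SkM under each of 11 alternatives. The other 6 genes were also called, but no weight is given to this, as they could pass the filter only through SkM. Over all genes, 8628 were called without the replicate block, 4243 of them higher in SkM. With all 5 mice and WT LV replicate 2, 8255 were called (3986 higher), and with total counts 9381 (1698 higher). Leaving out a mouse gave between 6895 and 7931 genes. Of 483 alternative values of 44 named genes, 469 kept direction and side of the threshold, 6 lost the call and 8 reversed. With total counts, Eya2 was -0.31, Zeb1 -0.27, Rbm24 -0.37 and Ncam1 -0.54. Eya2 was -0.25 with all 5 mice and between -0.20 and 0.84 with 1 mouse left out, and Myh7 between -1.04 and 0.0303. The cause was not tested.

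For E0del/+ against WT in SkM, 0 of the 9 genes were called under each of 12 alternatives. The replicate block gave 1 gene and changed no other call, and turned Eya4 to 0.0318. With 1 library left out, Myod1 was between -0.91 and 0.28, Myf6 between -0.27 and 0.12, Eya1 between -0.21 and 0.13, Eya4 between -0.25 and 0.21 and Tbx15 between -0.40 and 0.13. Without WT replicate 2, which leaves 1 WT library assumed to vary like the others, these 5 were above 0. Of the SDs between SkM libraries, without WT replicate 2 that of Myod1 fell from 0.41 to 0.22, beside 0.31 for Six4 and 0.22 for Pax7, and without E0del/+ replicate 3 that of Myod1 (0.47) exceeded that of Myog (0.45). With TMM library sizes those of Eya1 and Eya4 rose to 0.23 and 0.19, and without E0del/+ replicate 2 that of Myf5 fell to 0.04, the lowest of the 9 genes.

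Depth limits Myf5 and Pax7, with at most 23 and 55 counts per SkM library, and 5 mice limit the genotype comparison.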
